A study of Mus musculus with 24 samples.

Results

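The 44 genes described here encode the machinery that copies DNA and the enzymes that supply its building blocks. They were taken by name from a list of replication and nucleotide synthesis genes. All 44 were found among the 43629 genes of the count table, and 42 of them were among the 10578 genes with enough counts to be tested. RNA was sequenced from cultured mouse acute myeloid leukaemia (AML) cells of the MLLAF9 line, which carry the MLL-AF9 fusion and express Cas9. Every group received guide RNA by lentivirus (multiplicity of infection, 0.3), was selected with 2 ug/ml puromycin for 72 hours from hour 48, and was harvested on day 9. There are 8 groups with 3 libraries each, 24 in all: a control with a non-targeting guide, a knockout of DOT1L, and 2 guides each against MLLT10, MLLT1 (also called ENL) and MLLT6 (also called AF17). DOT1L methylates lysine 79 of histone H3, and the other genes encode proteins of its complex. The labels give a single group for DOT1L and for the control, so what is particular to 1 guide cannot be told apart there. Nothing in them says that the 3 libraries of a group were separate cultures, so each p-value reflects only the spread among these libraries, which may be technical.

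Before a cell copies its DNA, the origin recognition complex (ORC), CDC6 and CDT1 load the ring-shaped MCM2-7 helicase onto origins, a step called licensing that geminin (Gmnn) blocks afterwards. In S phase CDC45, the GINS complex and MCM10 switch the helicase on, the polymerase alpha-primase complex lays down primers, and polymerases delta and epsilon extend them while held by the PCNA clamp, which the RFC complex loads. Ribonucleotide reductase and thymidylate synthase supply deoxynucleotides. E2F1 and its relatives are known to activate many of these genes at the start of S phase, so their mRNA is commonly read alongside proliferation, for which MLL-AF9 leukaemia cells in culture are known.

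Library totals ranged from 2403044 to 7415397 counts, which limits the precision of the less abundant members. Dot1l mRNA was lower in the libraries labelled DOT1L knockout (44.7 ± 3.91 CPM, SD, n = 3) than in the control (72.9 ± 2.84, n = 3). Mllt1 mRNA was not lower in its own knockout, so the groups are called as labelled. Among the 4 targeted genes, the lowest log2 fold change was -0.762 in the MLLT10 knockout and -0.904 in the MLLT6 knockout. None of them was called there (0.473% and 0% of all genes were), and which gene was lowest is not given here. Of the 4 targeted genes, 2 were called lower in the DOT1L knockout (beside 10.7% of all genes), so a fall was not confined to Dot1l. The lowest log2 fold change of the 4 was -0.996, a larger fall than that of the Dot1l means. It belongs to another targeted gene, which is not named here. All 7 myeloid markers (Ptprc, Spi1, Kit, Mpo, Itgam, Cd34 and Csf1r) had counts in every group, and the 4 B cell markers had none. T cell markers summed to at most 2.23 CPM, with Cd3e, Cd4 and Cd8a at 0. The erythroid markers summed to between 67.2 and 96.3 CPM in the control and between 1.86 and 3.92 CPM in the DOT1L knockout. The 4 stromal markers summed to 14.6 to 20.3 CPM in the DOT1L knockout, with Col1a2 and Col3a1 at 0, and to at most 2.02 CPM in the other 21 libraries. A pair of libraries stood apart from the rest, replicate 3 of MLLT6 guide 1 and replicate 1 of MLLT1 guide 1. Their best correlation with any other library was 0.953 and 0.960, against at least 0.970 for each of the other 22. In bulk RNA, fewer cells in S phase and less replication mRNA per cell cannot be told apart.

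Upstream sequences of 3 members show what members that were higher in the DOT1L knockout do and do not share in letters. They are from RefSeq (GRCm38.p6), 5′ to 3′, each the 250 bases before the annotated start. Capitals mark CCAAT boxes and E2F-type sites on either strand. Orc1 is at chr4:108579204-108579453, Mcm5 at chr8:75109259-75109508 and Rrm2 at chr12:24708004-24708253, all on the plus strand.
Orc1: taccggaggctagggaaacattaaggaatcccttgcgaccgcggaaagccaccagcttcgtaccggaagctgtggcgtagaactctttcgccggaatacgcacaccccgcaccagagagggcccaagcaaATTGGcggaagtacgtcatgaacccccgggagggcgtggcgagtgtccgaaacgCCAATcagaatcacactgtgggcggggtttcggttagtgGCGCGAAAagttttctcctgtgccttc
Mcm5: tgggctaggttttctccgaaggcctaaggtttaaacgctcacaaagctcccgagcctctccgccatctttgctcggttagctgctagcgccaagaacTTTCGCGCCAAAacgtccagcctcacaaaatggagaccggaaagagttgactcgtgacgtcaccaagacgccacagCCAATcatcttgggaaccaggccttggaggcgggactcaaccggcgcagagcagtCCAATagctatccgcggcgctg
Rrm2: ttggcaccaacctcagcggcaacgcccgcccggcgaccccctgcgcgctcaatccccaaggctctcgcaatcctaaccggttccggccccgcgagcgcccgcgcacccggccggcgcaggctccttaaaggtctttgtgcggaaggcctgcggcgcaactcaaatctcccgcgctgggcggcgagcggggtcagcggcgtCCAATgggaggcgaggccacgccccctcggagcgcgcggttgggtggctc
The E2F-type letters searched were TTTCGCGC, TTTGGCGC, TTTCCCGC and TTTGCCGC on both strands, in windows from 250 bases before to 50 after the start. In Mcm5 a match on each strand overlaps to give the longer run of capitals. RefSeq windows were matched for 36 of the 44 members, and a gene counted if any of its windows matched. Of those 36 members, 13 (36.1%) held an E2F-type sequence. This compares with 2.6% of all 27025 genes with a window and 5.01% of tested genes with a window. These 13 were Cdc6, Cdt1, Gins3, Lig1, Mcm3, Mcm5, Mcm6, Mcm7, Orc1, Pola1, Pold1, Rfc3 and Uhrf1. The letters CCAAT, on either strand, were in 23 of the 36 members (63.9%), against 41.1% of all genes and 43.6% of tested genes. The partial NRF1 site GCATGCGC was in 4 of them (11.1%, against 3.05% of all genes and 6.46% of tested genes). The letters TTTGAA of the cell cycle homology region were in 5 (13.9%, against 20.2% and 14.2%). These are matches of letters, not sites shown to be bound. The window of Rrm2 held no E2F-type sequence, and those of Tyms and E2f1 held neither that nor CCAAT. The windows of E2f1, Cdc6, Dut and Mcm7 lie wholly within their M21 genes, so they do not cover the bases upstream of the M21 starts. The E2F-matching windows of Lig1 and Uhrf1 also lie inside their M21 genes.

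In the control, the members spanned a wide range of mRNA levels per exonic length. The highest was Dut, the enzyme that hydrolyses dUTP and keeps uracil out of DNA, at 314 ± 30.7 CPM per kb (SD, n = 3). Mcm3 (130 ± 22.3), Mcm6 (129 ± 14.4), the ribonucleotide reductase subunit Rrm2 (121 ± 24.98) and Mcm2 (107 ± 48.7) followed in CPM per kb, and these neighbours lay within each other's spread. The 3 ORC subunits stood lower, with Orc1 at 2.86 ± 0.262, Orc2 at 4.25 ± 0.958 and Orc6 at 15.9 ± 5.27 CPM per kb. These levels assume that reads fell along the whole transcript; the library kit is not given in the sources used here. Dut was at 816, 674 and 778 CPM in the control and at 667, 728 and 685 CPM in the DOT1L knockout. Its MLLT10 guide 1 libraries stood at 840, 676 and 715 CPM, those of guide 2 at 877, 756 and 973 CPM. With MLLT1 it was at 617, 785 and 820 CPM for guide 1 and 782, 555 and 860 CPM for guide 2. With MLLT6 it was at 799, 687 and 366 CPM for guide 1 and 798, 621 and 745 CPM for guide 2. All groups overlapped the control, and the lowest value was that of MLLT6 guide 1 replicate 3, which stood apart.

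At the other end of the scale were genes whose 3′ ends overlap a neighbour on the opposite strand. Fen1, the flap endonuclease that trims Okazaki fragments, had 6 counts in all 24 libraries, and Chaf1a, the large subunit of the histone chaperone CAF-1, had 31. Neither could be tested. Fen1 was at 0 in all control and DOT1L knockout libraries, and it had 1 or 2 counts in 5 others. In GENCODE M21, 88.6% of the last 500 exonic bases of Fen1 are also exonic in opposite-strand genes (Tmem258 and Gm10143), and 88.6% of those of Chaf1a in Ubxn6. Gm10143, which shares 1909 exonic bases with Fen1, was at 0 CPM in the control. Tmem258, which shares 130, was at 165 ± 11.8 CPM and Ubxn6 at 41.2 ± 7.85 CPM there (SD, n = 3). Gins2, a GINS subunit, shares all of its last 500 bases with Gse1, which was at 1.31 ± 0.424 CPM in the control (SD, n = 3). Gins2 was the lowest tested member per length, at 1.60 ± 0.235 CPM per kb. It stood at 7.01, 7.19 and 5.44 CPM in the control and at 2.60, 9.95 and 8.197 CPM in the DOT1L knockout. The MLLT10 libraries held 5.74, 3.44 and 5.18 CPM of Gins2 with guide 1 and 5.52, 6.28 and 3.91 CPM with guide 2. The MLLT1 libraries held 2.02, 5.70 and 8.93 CPM with guide 1 and 4.21, 3.03 and 6.69 CPM with guide 2. The MLLT6 libraries held 4.95, 4.60 and 1.40 CPM with guide 1 and 2.94, 4.51 and 6.59 CPM with guide 2. The MLLT6 guide 1 libraries all lay below the control, the other groups spanned or overlapped its range, and no difference in Gins2 was called.

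**Figure D1:**
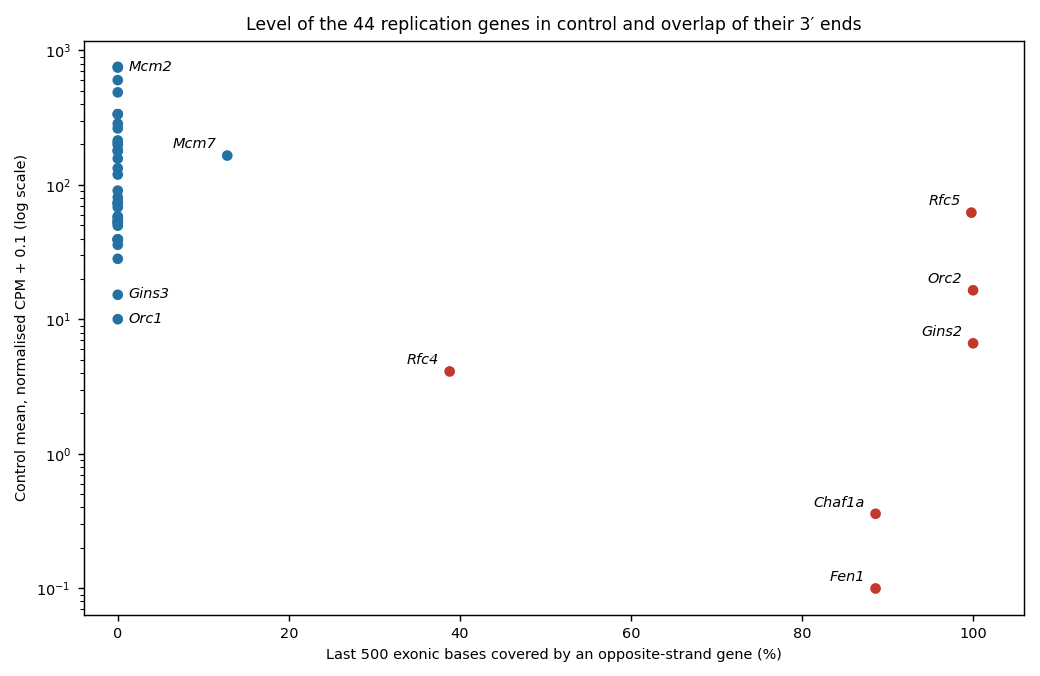
Mean normalised CPM in the control plus 0.1 (log scale) of each of the 44 members, against the percent of its last 500 exonic bases that an opposite-strand gene covers in GENCODE M21. Red points, with over 25% of those bases covered, are Fen1, Chaf1a, Gins2, Rfc4, Orc2 and Rfc5; Fen1 and Chaf1a lie at the bottom.

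Also overlapped there were Orc2 (100%, by Nif3l1), the clamp loader subunits Rfc5 (99.8%, by Wsb2) and Rfc4 (38.8%, by Eif4a2), and Mcm7 (12.8%). The other 37 members had no such overlap in their last 500 bases. Whether the authors' counting used strand is not given in the sources used here, and the annotation they counted with may differ from M21, so the counts of these 7 members are uncertain. The part of these overlaps in the low counts was not tested. Rfc5, overlapped almost wholly, was nevertheless at 62.2 ± 18.4 CPM in the control (SD, n = 3). Reads of Pcna could also be split with its processed pseudogene Pcna-ps2, which held 2712 counts against 21853 for Pcna.

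In the DOT1L knockout 6 of the 42 tested members were higher than in the control and none was lower (edgeR's quasi-likelihood test, calls at a p under 0.05 after Benjamini-Hochberg adjustment). They act at several steps: Rrm2 and Tyms in deoxynucleotide supply, Orc1 and Cdt1 in origin licensing, Mcm5 in the helicase, and the transcription factor E2f1. Changes were moderate, from 0.48 to 1.01 on the log2 scale. Across all genes 11.2% were called higher and 10.7% lower in this comparison, so 6 of 42 is near the background share of higher genes. The median log2 fold change of the 42 members was 0.24, beside 0.01 for all genes tested, and 35 of 42 had a positive value beside 50.5% of all genes. All 3 knockout libraries stood above all 3 control libraries for 18 members, and none lay wholly below; over all genes tested, 19.6% did not overlap in the higher direction and 18.6% in the lower.

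These directions depend on how libraries are scaled. TMM scaling factors were 0.863 to 0.880 for the DOT1L libraries and 0.955 to 1.07 for the other 21. Scaled by library totals alone, an alternative added once the data had been seen, the median of all genes moved to -0.24 and that of the members to -0.0017. Calls over all genes then shifted from 1181 higher and 1128 lower to 776 higher and 2096 lower. Under that scaling Rrm2 and Orc1 were still called higher, Pold2 was called lower, 21 of 42 members had a positive value, and 35 of 42 lay above the median of all genes. The 6 neutrophil granule markers, all detected, summed to 91120 to 104900 CPM in the DOT1L libraries against 280 to 382 CPM in the control. The 7 myeloid markers summed to 3180 to 3426 CPM against 712 to 918 CPM, and which of them rose is not given here. The part of these markers, and of the erythroid and stromal ones, in the replication gene values was not tested.

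**Figure D2:**
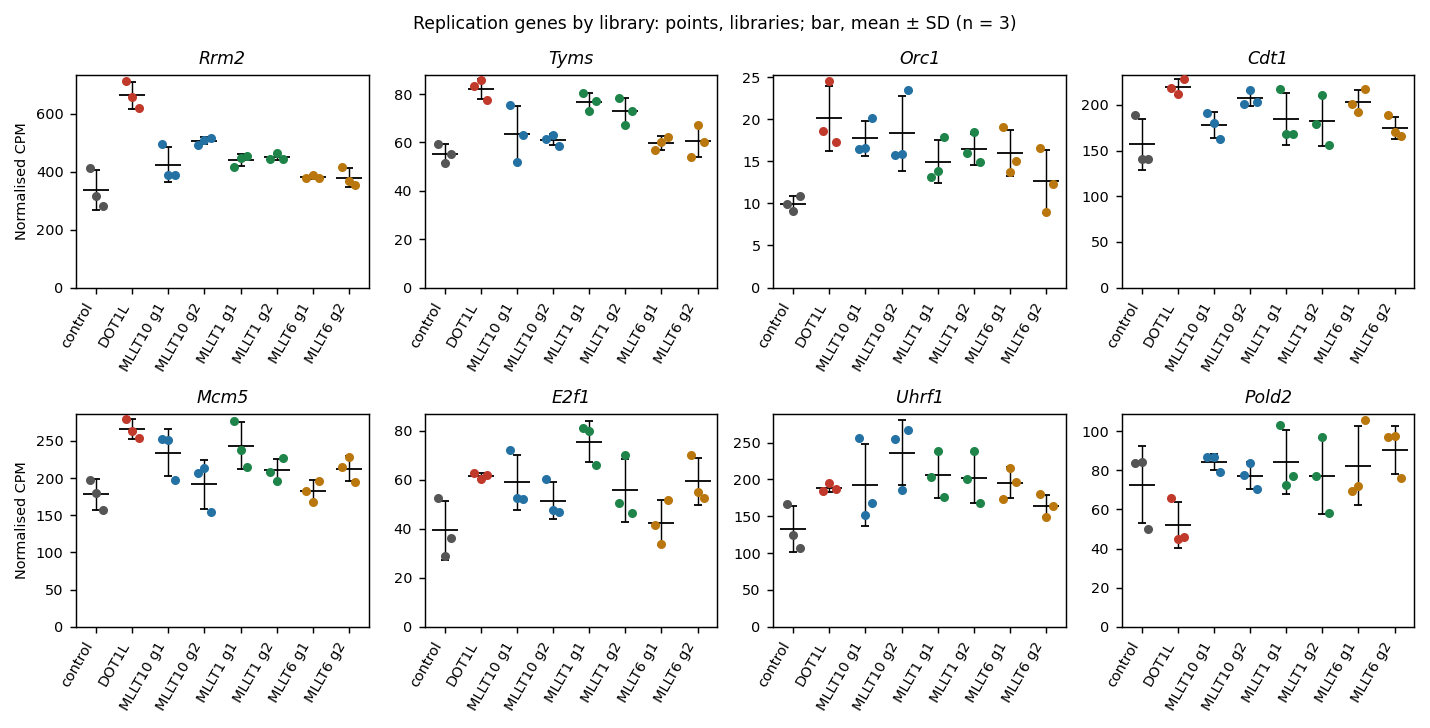
Normalised CPM of 8 members in each library (points), with the mean and SD of each group (black, n = 3); g1 and g2 are the guides of a gene. Rrm2 in the DOT1L knockout, between 620 and 712 CPM, lies above every other library, and Pold2 is lowest on average there.

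Rrm2 (ENSMUSG00000020649, mm10 chromosome 12, 24708241 to 24714146) encodes the small, S-phase-regulated subunit of ribonucleotide reductase. It was at 413, 315 and 280 CPM in the control and at 712, 658 and 620 CPM in the DOT1L knockout. With MLLT10 it stood at 496, 390 and 387 CPM for guide 1 and 492, 510 and 515 CPM for guide 2. The DOT1L libraries lay above all others, and the MLLT10 guide 2 libraries above the control. The MLLT1 libraries held 417, 448 and 453 CPM of Rrm2 with guide 1 and 444, 463 and 443 CPM with guide 2. In the MLLT6 libraries it was at 378, 388 and 378 CPM with guide 1 and 417, 366 and 355 CPM with guide 2. The MLLT1 libraries lay just above the highest control library, while those of MLLT6 fell within or at the edge of the control range. In the DOT1L knockout Rrm2 was higher by 0.98 ± 0.14 (log2, SE; edgeR adjusted p = 1.23e-05), and it was called under each of the 13 other settings tried. Its partner Rrm1, the large subunit, was at 263 ± 4.63 CPM in the control and 335 ± 26.6 CPM in the DOT1L knockout (SD, n = 3) and did not pass (0.35 ± 0.16, edgeR adjusted p = 0.135).

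Tyms (ENSMUSG00000025747, chromosome 5, 30058202 to 30073617), thymidylate synthase, makes dTMP. Its control libraries were at 59.4, 51.6 and 55.2 CPM and its DOT1L libraries at 83.2, 85.7 and 77.5 CPM. MLLT10 libraries were at 75.4, 51.96 and 63.2 CPM with guide 1 and 61.4, 63.1 and 58.6 CPM with guide 2. The DOT1L libraries were all above the control, whereas each MLLT10 guide overlapped it. MLLT1 libraries held 80.4, 72.9 and 77.0 CPM with guide 1 and 78.3, 67.3 and 73.1 CPM with guide 2, all above the control range. MLLT6 libraries held 56.9, 60.1 and 62.3 CPM with guide 1 and 54.1, 67.3 and 60.2 CPM with guide 2. The rise in the DOT1L knockout was 0.57 ± 0.14 (log2, SE; edgeR adjusted p = 0.00497). That call was lost with no filter on low counts (adjusted p = 0.0759) and with library totals alone (0.0872). Tk1 (thymidine kinase, 0.30 ± 0.21, edgeR adjusted p = 0.35) and Dut (-0.13 ± 0.21, adjusted p = 0.744) did not pass.

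Orc1 (ENSMUSG00000028587, chromosome 4, 108579423 to 108614833), the largest ORC subunit, was at 9.89, 9.07 and 10.9 CPM in the control. It was at 18.6, 24.5 and 17.3 CPM in the DOT1L knockout, above all 3 control libraries. The MLLT10 libraries stood at 16.5, 16.6 and 20.1 CPM of Orc1 with guide 1 and 15.7, 15.9 and 23.4 CPM with guide 2. The MLLT1 libraries stood at 13.1, 13.9 and 17.9 CPM with guide 1 and 15.95, 18.4 and 14.9 CPM with guide 2. All of these lay above the control, which was the lowest group for this gene. The MLLT6 libraries stood at 19.1, 13.8 and 15.04 CPM with guide 1 and 16.6, 9.01 and 12.3 CPM with guide 2, where 1 library was below the control. Only the DOT1L difference was called among the main comparisons, at 1.01 ± 0.25 (log2, SE; edgeR adjusted p = 0.00446), and it passed under each of the 13 other settings. Of the other licensing genes, Orc2 (0.47 ± 0.28) and Orc6 (0.27 ± 0.32) had edgeR adjusted p of 0.253 and 0.61. Cdc6 (0.08 ± 0.25) and the inhibitor Gmnn (0.14 ± 0.19) had 0.866 and 0.687.

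Cdt1 (ENSMUSG00000006585, chromosome 8, 122568015 to 122573554), the loading factor that brings MCM2-7 to ORC, was at 189, 141 and 141 CPM in the control and at 219, 212 and 228 CPM in the DOT1L knockout. MLLT10 libraries held 191, 181 and 163 CPM with guide 1 and 201, 217 and 203 CPM with guide 2. MLLT1 libraries held 218, 168 and 168 CPM with guide 1 and 179, 211 and 156 CPM with guide 2. The DOT1L and MLLT10 guide 2 libraries cleared the control, and the other 3 of these groups overlapped it. In the MLLT6 libraries it was at 201, 193 and 217 CPM with guide 1 and 189, 170 and 166 CPM with guide 2, and guide 1 lay above the control. The DOT1L difference was 0.48 ± 0.15 (log2, SE; edgeR adjusted p = 0.0189). It was lost in 7 of 13 other settings, among them leaving out control replicate 2 (adjusted p = 0.111), control replicate 3 (0.0969), DOT1L replicate 1 (0.0542) or DOT1L replicate 3 (0.0691).

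Mcm5 (ENSMUSG00000005410, chromosome 8, 75109569 to 75128439) was the 1 helicase subunit of 6 that was called. It stood at 198, 180 and 157 CPM in the control and 280, 264 and 254 CPM in the DOT1L knockout. MLLT10 libraries were at 253, 252 and 198 CPM of Mcm5 with guide 1 and 207, 214 and 154 CPM with guide 2. The DOT1L libraries lay above the control, whereas MLLT10 guide 2 reached below it. MLLT1 libraries were at 277, 238 and 215 CPM with guide 1 and 208, 196 and 227 CPM with guide 2. MLLT6 libraries were at 183, 167 and 197 CPM with guide 1 and 215, 228 and 195 CPM with guide 2. Mcm5 rose by 0.58 ± 0.15 in the DOT1L knockout (log2, SE; edgeR adjusted p = 0.00642). This was lost with library totals alone (adjusted p = 0.0721). Its partners in the ring were Mcm2 (0.37 ± 0.29), Mcm4 (0.37 ± 0.30), Mcm7 (0.17 ± 0.30), Mcm3 (0.01 ± 0.13) and Mcm6 (-0.10 ± 0.13), with edgeR adjusted p between 0.4 and 0.96. The control spread of Mcm2 was wide, 1129, 630 and 481 CPM.

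E2f1 (ENSMUSG00000027490, chromosome 2, 154559407 to 154569892) was at 52.8, 29.1 and 36.2 CPM in the control and at 62.8, 60.4 and 61.8 CPM in the DOT1L knockout. MLLT10 libraries held 72.03, 52.7 and 52.2 CPM with guide 1 and 60.3, 47.6 and 46.9 CPM with guide 2. The DOT1L libraries all lay above the control, and both MLLT10 guides overlapped it. MLLT1 libraries held 81.0, 80.03 and 65.9 CPM with guide 1 and 50.6, 70.2 and 46.4 CPM with guide 2. MLLT6 libraries held 41.7, 33.7 and 51.9 CPM with guide 1 and 70.3, 55.1 and 52.7 CPM with guide 2. In these, MLLT1 guide 1 was wholly above the control and the rest overlapped or touched it. The rise was 0.66 ± 0.22 in the DOT1L knockout (log2, SE; edgeR adjusted p = 0.0335), lost in 7 of 13 other settings, among them leaving out control replicate 2 (adjusted p = 0.211), control replicate 3 (0.113) or any 1 of the DOT1L replicates (0.0661 to 0.0855).

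Elsewhere in the pathway no member was called in the DOT1L knockout. Among 6 helicase activators all values were positive, with a median of 0.40. Mcm10 (0.39 ± 0.14, edgeR adjusted p = 0.0562) and the GINS subunit Gins4 (0.43 ± 0.16, adjusted p = 0.0673) lay just outside the threshold. Cdc45 (0.48 ± 0.23) had an adjusted p of 0.154. Of the chromatin genes, the CAF-1 subunit Chaf1b (0.44 ± 0.16, edgeR adjusted p = 0.0591) and Uhrf1 (0.50 ± 0.20, adjusted p = 0.0774), which guides maintenance DNA methylation, were also just outside. For the clamp and its loader the median of 6 was 0.13, with Pcna at 0.17 ± 0.14 (edgeR adjusted p = 0.453). The 7 polymerase and primase genes had a median of -0.01, from the primase subunit Prim1 at 0.49 ± 0.22 (edgeR adjusted p = 0.119) to Pold2 at -0.48 ± 0.23 (adjusted p = 0.141). Without control replicate 3, whose Pold2 level was low, Pold2 was called lower. Rpa1 and Rpa2, which coat single-stranded DNA, and the ligase Lig1 lay between 0.06 and 0.23.

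**Figure D3:**
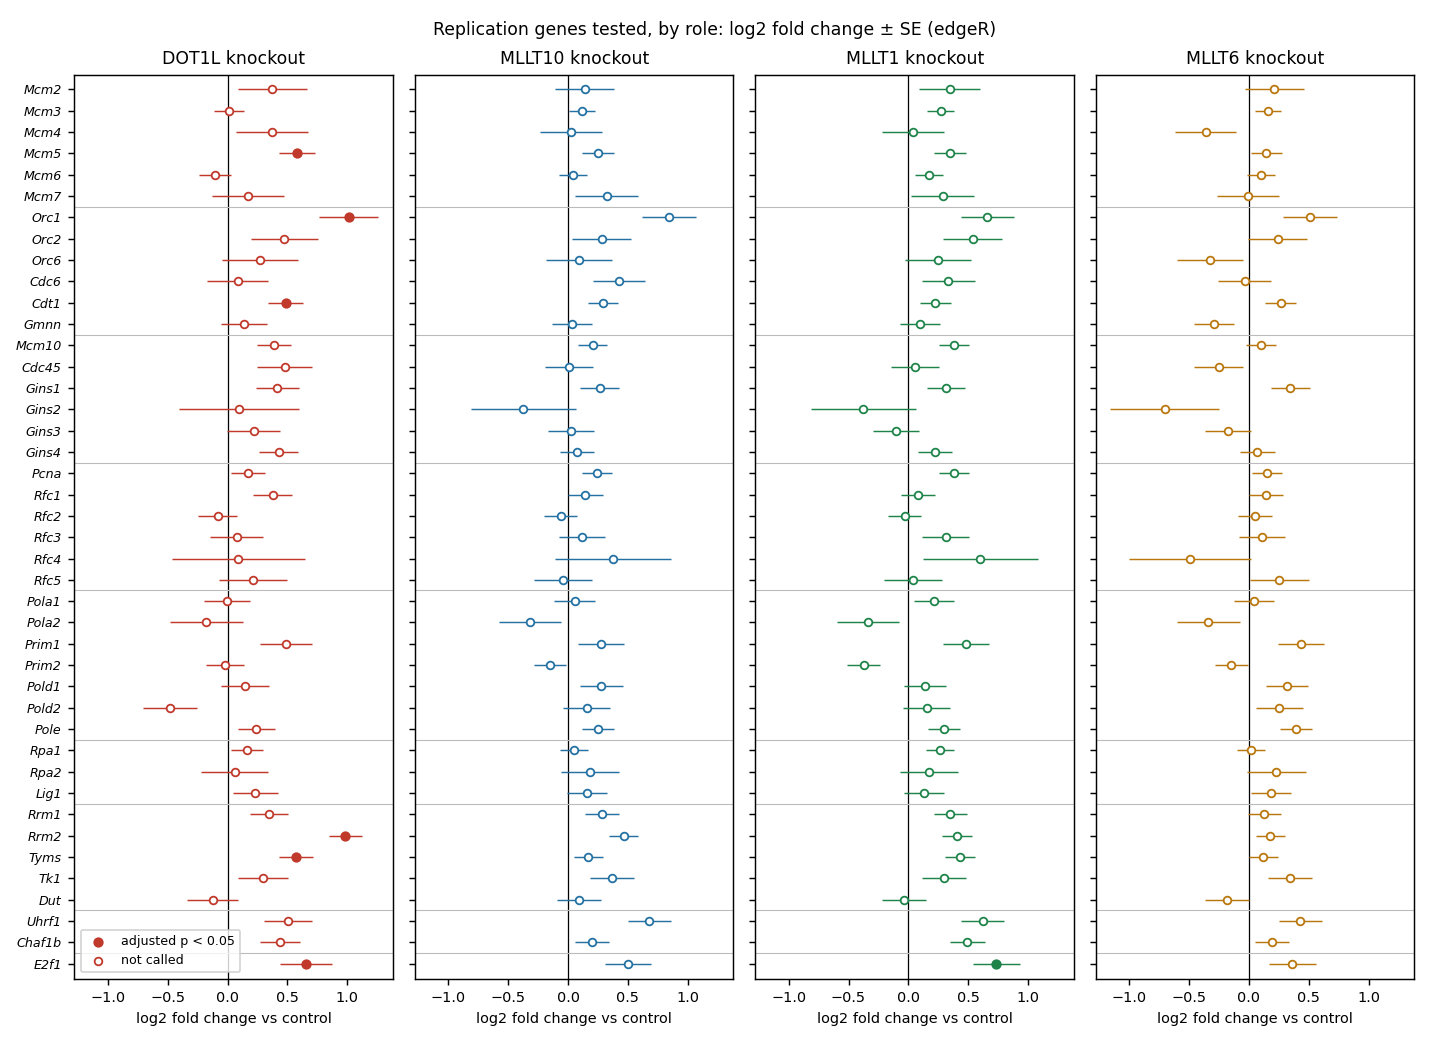
Log2 fold change against the control ± SE for the 42 tested members in the 4 knockouts, in the order helicase, licensing, activation, clamp, polymerases, single-strand binding and joining, nucleotide synthesis, chromatin, E2f1. Filled points passed an adjusted p under 0.05 (6 for DOT1L, 1 for MLLT1); most open points lie to the right of 0 in each panel.

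In the MLLT1 knockout, E2f1 was the 1 member called, higher by 0.73 ± 0.19 (log2, SE; edgeR adjusted p = 0.0432), where 0.974% of all genes were called higher and 1.61% lower. The call was lost in 7 of 16 other settings, including leaving out control replicate 2 (adjusted p = 0.342) or control replicate 3 (0.236). It was also lost without replicate 1 or 2 of either guide (0.053 to 0.116). By guide, E2f1 was called with guide 1 (0.95 ± 0.22, edgeR adjusted p = 0.0316; 1.25% of genes called) but not with guide 2 (0.52 ± 0.22, adjusted p = 0.328; 1.22% called). The guides themselves did not differ past the threshold (guide 2 minus guide 1, -0.44 ± 0.21, edgeR adjusted p = 1.00). Without both libraries that stood apart, the guide 1 value was 0.90 with an adjusted p of 0.0642. The members' median over both guides was 0.27 and 36 of 42 were positive, beside 0.0063 and 50.8% for all genes tested. Uhrf1 (0.62 ± 0.18), Tyms (0.43 ± 0.13), Chaf1b (0.49 ± 0.14) and Rrm2 (0.40 ± 0.12) had edgeR adjusted p between 0.066 and 0.0817. Prim2, a primase subunit, had the lowest p among members below the control (-0.37 ± 0.14, adjusted p = 0.162). The neutrophil granule markers summed to 1778 to 2318 CPM across the MLLT1 libraries and the erythroid markers to 11.09 to 21.9 CPM; their part was not tested.

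No member was called in the MLLT10 knockout, where 0.473% of all genes were called in either direction. At an unadjusted p under 0.05 there were 5 (9.58% of all genes reached it), and the DESeq2 test called 2 (Rrm2 and Uhrf1). Orc1 (0.84 ± 0.22), Uhrf1 (0.68 ± 0.18) and Rrm2 (0.46 ± 0.12) each had an edgeR adjusted p of 0.101. The members' median was 0.16 and 37 of 42 were positive, beside 0.0023 and 50.4% for all genes tested. With guide 1 (0.17% of genes called) and guide 2 (0.303%) taken alone, no member was called by edgeR, 6 passed an unadjusted p under 0.05 with each (6.62% and 9.43% of all genes did), and DESeq2 called 0 and 2. The shares of all genes that DESeq2 called are not given here. Neutrophil granule markers summed to 726 to 1054 CPM in the MLLT10 libraries, and their part was not tested.

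In the MLLT6 knockout no member and no gene at all was called (0%), together or by guide (0% and 0%). An unadjusted p under 0.05 was reached by 5 members together, 9 with guide 1 and 2 with guide 2, beside 6.87%, 13.1% and 2.7% of all genes, and DESeq2 called none of them. The members' median was 0.14 and 30 of 42 were positive, beside -0.0038 and 49.4% for all genes tested. Members ran from Gins2 at -0.70 ± 0.45 to Orc1 at 0.51 ± 0.22 (log2, SE). No member differed between the guides of any gene either (0% of genes called for MLLT10, 0% for MLLT1 and 0% for MLLT6); 0, 1 and 3 members had an unadjusted p under 0.05, beside 1.72%, 2.1% and 9.29% of all genes, and DESeq2 called none.

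All 4 comparisons use the same 3 control libraries, so their values are not independent. Control replicate 3 was the lowest of all 24 libraries for 13 members, and the members summed to 7731, 6110 and 5782 CPM in the control libraries. In the knockouts these sums ran from 7541 to 8037 CPM for DOT1L, 7011 to 7790 for MLLT10, 7259 to 8232 for MLLT1 and 6767 to 7448 for MLLT6. Control replicate 1 thus lay within the range of each other knockout or above it, while replicates 2 and 3 lay below them all.

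**Figure D4:**
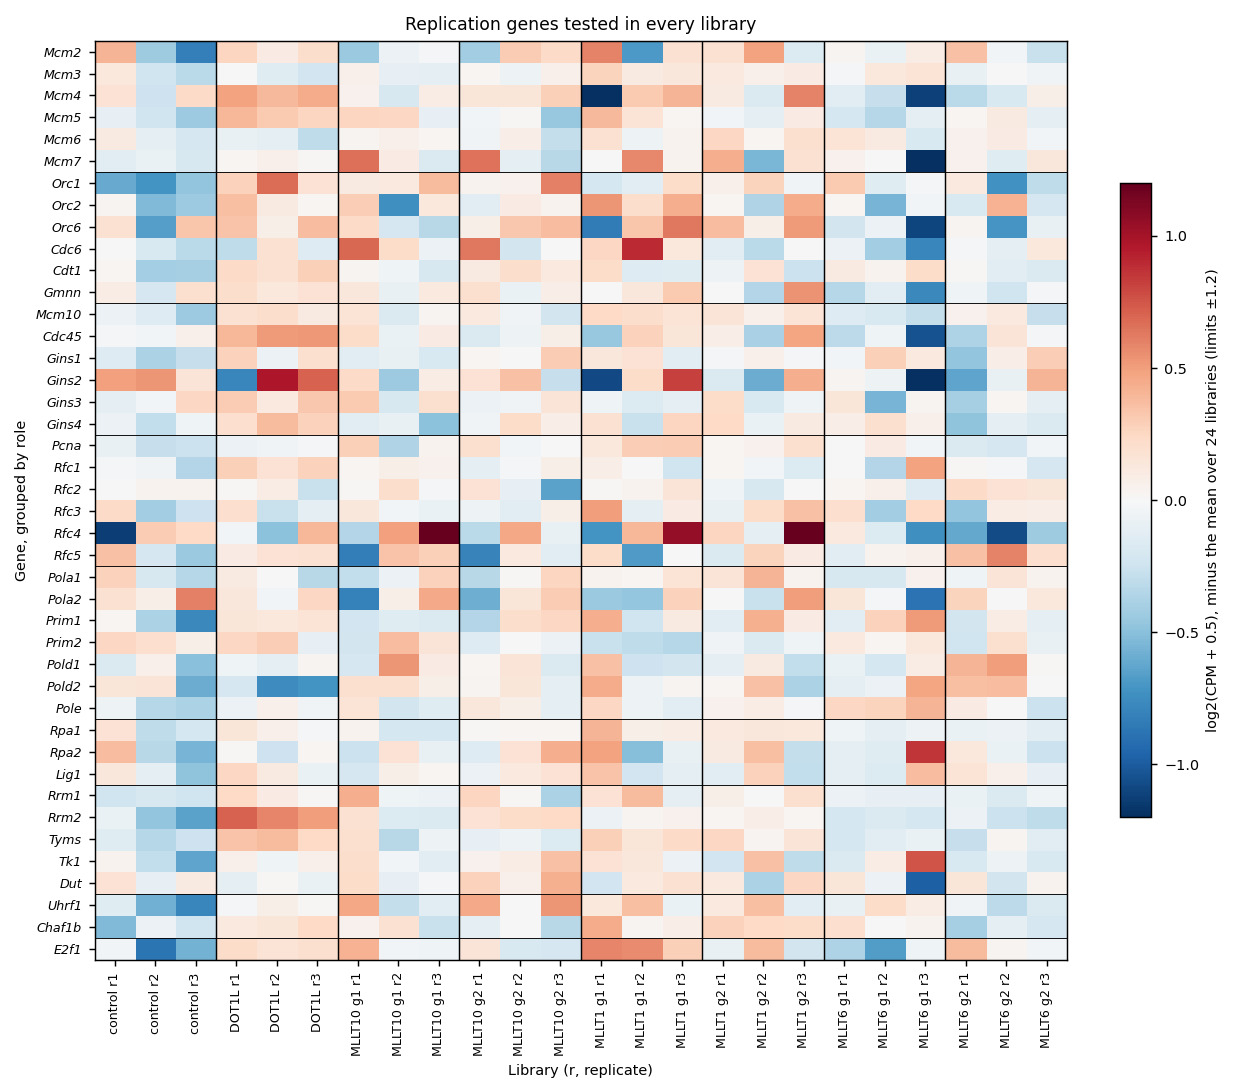
Each tested member in each library, as log2(CPM + 0.5) minus its mean over the 24 libraries (colour, limits ±1.2). Control replicates 2 and 3 are mostly blue, and Rrm2 is reddest in the DOT1L libraries. MLLT6 guide 1 replicate 3 is split between deep blues (among them Gins2, Mcm7, Cdc45 and Orc6) and reds (among them Rpa2 and Tk1).

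Log2 fold changes between knockouts do not use the control levels, but the control libraries enter the shared estimate of the spread. Comparisons with DOT1L all use the same 3 DOT1L libraries, so they are not independent of each other. Rrm2 was higher in the DOT1L knockout than in each other one: by 0.52 ± 0.12 against MLLT10 (edgeR adjusted p = 0.00192), 0.58 ± 0.12 against MLLT1 (0.000737) and 0.80 ± 0.12 against MLLT6 (1.00e-05). With library totals alone the MLLT10 difference was 0.29 and no longer passed (adjusted p = 0.0516). Pold2 (ENSMUSG00000020471, chromosome 11, 5872180 to 5878292), the accessory subunit of polymerase delta, went the other way. It was at 65.8, 44.8 and 45.98 CPM in the DOT1L knockout. Its levels were 86.7, 86.7 and 79.4 CPM with MLLT10 guide 1 and 77.7, 83.96 and 70.3 CPM with guide 2. The DOT1L libraries lay below all 6 of these. MLLT1 libraries were at 102.9, 72.7 and 77.3 CPM with guide 1 and 77.05, 96.8 and 58.0 CPM with guide 2. MLLT6 libraries were at 69.6, 72.02 and 105.6 CPM with guide 1 and 97.1, 97.8 and 76.1 CPM with guide 2. Except for 1 library of MLLT1 guide 2, all of these were above the DOT1L libraries; control libraries were at 83.7, 84.1 and 49.8 CPM. Pold2 was lower in the DOT1L knockout by -0.64 ± 0.20 against MLLT10 (edgeR adjusted p = 0.0223), -0.63 ± 0.20 against MLLT1 (0.0256) and -0.73 ± 0.20 against MLLT6 (0.00728). Each of these was lost without DOT1L replicate 2 (adjusted p = 0.122, 0.143 and 0.0544) or replicate 3 (0.13, 0.15 and 0.0568). The MLLT1 difference was also lost without MLLT1 guide 2 replicate 2 (0.0611).

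Against MLLT10, the DOT1L knockout also had higher Tyms (0.40 ± 0.12, edgeR adjusted p = 0.0173), which made 2 members higher and 1 lower, where 12.6% and 10.9% of all genes were called. That call was lost in 5 of 16 other settings, among them leaving out DOT1L replicate 1 (adjusted p = 0.0708) or 2 (0.0805). Across the settings its log2 fold change went down to 0.17. Against MLLT1, 1 member was higher and 1 lower (11.1% and 8.49% of genes). With library totals alone 7 were called there, 1 higher and 6 lower, the lower being Mcm3, Mcm6, Pcna, Pola1, Pold2 and Rpa1; 7.14% of all genes were then called higher and 19.4% lower. Against MLLT6, 5 were higher and 1 lower (15.3% and 14% of genes). Besides Rrm2 these were Cdc45, Tyms (0.45 ± 0.12, edgeR adjusted p = 0.00635), Mcm5 (0.43 ± 0.13, adjusted p = 0.0118) and Mcm4. The Mcm5 call was lost in 3 of 16 other settings, among them leaving out DOT1L replicate 1 (adjusted p = 0.0708). The Tyms call was lost in 2 of 16.

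Cdc45 (ENSMUSG00000000028, chromosome 16, 18780447 to 18811987), part of the active helicase, was at 75.8, 82.1 and 82.2 CPM in the DOT1L knockout. With MLLT6 it was at 45.9, 55.2 and 27.6 CPM for guide 1 and 44.2, 63.8 and 56.6 CPM for guide 2, and in the control at 56.9, 55.99 and 59.9 CPM. All DOT1L libraries lay above all of these. MLLT10 libraries stood at 66.9, 54.2 and 61.2 CPM with guide 1 and 50.7, 54.98 and 60.2 CPM with guide 2. MLLT1 libraries stood at 41.7, 69.3 and 63.5 CPM with guide 1 and 60.5, 43.6 and 79.6 CPM with guide 2. The difference from MLLT6 was 0.73 ± 0.20 (log2, SE; edgeR adjusted p = 0.00628), lost with library totals alone (adjusted p = 0.0593). Mcm4 (ENSMUSG00000022673, chromosome 16, 15623897 to 15637400) was at 274, 257 and 267 CPM in the DOT1L knockout. With MLLT6 its libraries held 180, 162 and 90.1 CPM for guide 1 and 157, 173 and 206 CPM for guide 2, all lower. In the control it was at 222, 165 and 230 CPM. MLLT10 libraries held 204, 172 and 209 CPM of Mcm4 with guide 1 and 218, 217 and 240 CPM with guide 2, and MLLT1 libraries 79.4, 245 and 261 CPM with guide 1 and 211, 174 and 297 CPM with guide 2. The lowest 2 libraries of the 24 were those that stood apart. Mcm4 differed from MLLT6 by 0.73 ± 0.25 (log2, SE; edgeR adjusted p = 0.0308). This call was lost in 7 of 16 other settings. Among them were leaving out any 1 of the DOT1L replicates (adjusted p 0.069 to 0.0877) or MLLT6 guide 1 replicate 3 (0.0708). Leaving out MLLT6 guide 2 replicate 1 (0.0603) or 2 (0.0539) also lost it. Between MLLT10 and MLLT1 (2.68% of genes called), MLLT10 and MLLT6 (0.766%) and MLLT1 and MLLT6 (4.46%), no member was called by edgeR or DESeq2, with 3, 4 and 11 at an unadjusted p under 0.05, beside 13.0%, 10.4% and 19.9% of all genes.

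The libraries that stood apart did so in these genes too. MLLT6 guide 1 replicate 3 was the highest of 24 for 7 members (Lig1, Pold2, Pole, Prim1, Rfc1, Rpa2 and Tk1) and the lowest for 8 (Cdc45, Cdc6, Dut, Gins2, Gmnn, Mcm7, Orc6 and Pola2). MLLT1 guide 1 replicate 1 was the highest for 8 (Chaf1b, E2f1, Mcm10, Mcm2, Mcm3, Orc2, Rfc3 and Rpa1) and the lowest for Mcm4. Without both libraries, an alternative added once the data had been seen, 8 members were called higher in the DOT1L knockout against the control. The share of all genes called in that setting is not given here.

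Other genes of DNA synthesis gave a mixed picture in the DOT1L knockout, where 11.2% of all genes were called higher and 10.7% lower. Of 32 tested of 34 further replication genes, 6 were higher and 2 lower, with a median of 0.31. The largest rises by p were Rnaseh2c (1.11 ± 0.14, edgeR adjusted p = 4.17e-06), a subunit of RNase H2 whose last 500 bases overlap Kat5 in part, and Mcmbp (0.79 ± 0.13, adjusted p = 7.5e-05), which binds MCM subunits. The 2 that fell, named after their values were seen, were the ORC subunit Orc5 (-0.93 ± 0.25, edgeR adjusted p = 0.00791) and the polymerase delta subunit Pold4 (-0.68 ± 0.24, adjusted p = 0.0418). Among E2F genes, pocket proteins and S-phase entry genes, 6 of 17 tested were higher and 0 lower. Cdc25a, the phosphatase that activates CDK2, went from 50.6 ± 12.03 to 151 ± 0.793 CPM (SD, n = 3; 1.58 ± 0.19, edgeR adjusted p = 1.07e-06). E2f2 (1.60 ± 0.25, adjusted p = 4.73e-05), E2f3 (0.88 ± 0.22, adjusted p = 0.00496) and Cdk2 (0.71 ± 0.17, adjusted p = 0.0043) rose as well by edgeR.

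Nucleotide synthesis beyond the members had a median of -0.0016. At a share not above the 11.2% of all genes called higher, there were 2 rises in 26 tested genes. They were Gart, a purine synthesis enzyme (0.55 ± 0.17, edgeR adjusted p = 0.0195), and Samhd1 (0.63 ± 0.20, adjusted p = 0.0257), an enzyme that degrades deoxynucleotides; both were named after their values were seen. Of 12 tested checkpoint genes, the kinase Atr, named likewise, was called lower (-0.90 ± 0.30, edgeR adjusted p = 0.0317) and none higher. For comparison, 4 of 20 mitosis genes were higher (Mki67, Kif11, Cenpe and Kif23) and 0 lower, with a median of 0.25. Beside both lists, 11.2% of all genes were called higher and 10.7% lower. In the MLLT1 knockout the fork protection gene Tipin was the 1 called in these lists (0.53 ± 0.12, edgeR adjusted p = 0.0168). There, 0.974% of all genes were called higher and 1.61% lower. In the MLLT10 and MLLT6 knockouts none was called by edgeR, beside 0.473% and 0% of all genes. An unadjusted p under 0.05 was reached by 7 genes of these lists for MLLT10 and 6 for MLLT6. Of all genes, 9.58% and 6.87% reached it.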

How the data were processed

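The authors deposited raw read counts per Ensembl gene for 24 libraries. Per the submitters' processing notes, bcl2fastq, HISAT2, HTSeq and DESeq2 were used with build mm10; tool versions, gene annotation and strandedness were not given in the sources used here. Of 43629 identifiers, 42548 matched a GENCODE M21 symbol, among them all 44 members. Counts were fitted once over all 8 groups with edgeR 4.0.16 (R 4.3.3): TMM scaling, filterByExpr, quasi-likelihood tests of 19 comparisons, Benjamini-Hochberg adjustment over 10578 genes, calls at an adjusted p under 0.05. For genes with 2 guides, the mean of both was compared. CPM are TMM-normalised counts per 1e+06 counts. SE was derived from the log2 fold change and the F statistic (size of the change divided by the root of F). The fit was tested on simulated data. Library pairs of a group differed by a chi-square of 4.77 to 34.3 per gene, above sampling noise.

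The members, gene lists and roles were chosen with earlier results of these data known. Values in every library are given for members called in a comparison with the control or between knockouts, and for the members highest and lowest per length. From the other lists, the 6 genes with the smallest adjusted p are named, and a few more as marked. Same-numbered replicates were checked for pairing by the correlation of their deviations from group means: all 3 exceeded 0.1 for 6 of 28 pairs of groups, among them the control with MLLT10 guide 1, MLLT1 guide 2 and MLLT6 guide 2, but not the control with DOT1L (0.24, 0.06 and 0.13). Alternatives were no low-count filter, DESeq2 1.42.0 size factors and test, a replicate block, the compared groups alone, leaving out each library and, added after seeing the data, leaving out both libraries that stood apart and scaling by library totals alone.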

Additional observations from a re-analysis of the deposited data

How the results depend on the processing

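Of 283 counts of called members under other settings, 248 stayed within 1.5 times the main count. In this section the shares of all genes called are given for library totals alone. For the other settings they are not given, so those counts cannot be read as effects on the members. Of 19 calls of a member in a comparison, 4 passed in every setting run (Rrm2 in the DOT1L knockout against the control, MLLT1 and MLLT6, and Orc1 against the control), 15 were lost in at least 1, and 0 changed sign; the cause was not tested. Scaling by library totals alone gave 3 called members for DOT1L against the control (6 in the main fit), 7 against MLLT1 (2) and 1 for MLLT1 against MLLT6 (0). In that order, 7.34%, 7.14% and 2.31% of all genes were then called higher, and 19.8%, 19.4% and 2.33% lower. In the main fit, 11.2% and 11.1% were higher and 10.7% and 8.49% lower in the DOT1L comparisons. For MLLT1 against MLLT6 it was 4.46% in either direction. Without a low-count filter there were 1 for MLLT10 (0), 2 for MLLT1 (1), 1 for MLLT10 guide 2 (0), each against the control, and 2 for MLLT1 against MLLT6 (0). The DESeq2 test called 2 for MLLT10, 3 for MLLT1 and 2 for MLLT10 guide 2 against the control. The compared groups alone gave 0 for MLLT1 and 0 for MLLT1 guide 1, and leaving out both libraries that stood apart gave 0 for MLLT1 guide 1. Leaving out 1 library gave 4 to 8 for DOT1L, 0 to 1 for MLLT10, 0 to 4 for MLLT1, 0 to 2 for MLLT10 guide 2, 0 to 3 for MLLT1 guide 1 and 0 to 1 for MLLT1 guide 2 against the control. Between knockouts it gave 1 to 3 for DOT1L against MLLT10, 1 to 2 against MLLT1, 4 to 7 against MLLT6 and 0 to 3 for MLLT1 against MLLT6. With the replicate number as a block, 8 were called for DOT1L, 4 for MLLT1 (E2f1, Rrm2, Tyms and Uhrf1) and 2 for MLLT10 guide 2 (Rrm2 and Uhrf1) against the control. In those comparisons not every correlation between same-numbered replicates exceeded 0.1. For the control with MLLT10 guide 2 they were 0.15, 0.096 and 0.197. In the 3 guide comparisons with the control where all correlations exceeded 0.1, the block changed no call (0 members with and without it). Depth limits the rarest members: Rfc4 had 483 counts and Gins2 525 over all libraries, so small differences in them were not detectable.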

Other observations

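The libraries that correlated best in the series came from different groups. Replicate 1 of MLLT10 guide 1 and replicate 1 of MLLT10 guide 2 correlated at 0.989, the highest value for any library, although their counts differed by a chi-square of 5.24 per gene, above sampling noise; by chi-square the closest pair of all was at 3.92. Several members took nearly the same level in both: Mcm7 stood at 286 and 285 CPM, beside 144 to 194 CPM in the other 4 MLLT10 libraries, Rfc5 at 36.2 and 36.8 CPM, beside 59.4 to 82.3 CPM, and Pola2 at 34.3 and 40.04 CPM, beside 63.4 to 82.6 CPM. Cdc6 was at 71.0 and 68.3 CPM in this pair and at 37.6 to 51.02 CPM in the other 4. These levels were not particular to the pair: replicate 2 of MLLT1 guide 1 had Mcm7 at 270 CPM, Rfc5 at 40.2, Pola2 at 43.5 and Cdc6 at 81.8 CPM. These members were chosen after their values were seen. The mitochondrial share of counts followed the replicate number: it was highest in replicate 1 in all 8 groups, at 1.62% to 2.17%, beside 1.21% to 1.57% in the other replicates. Replicate 2 had the lowest share in every group. The main tests had no replicate block, and calls with such a block are given above. The part of this pattern in the member calls was not tested.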
